A study of Mus musculus with 27 samples.

Results

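Intestinal organoids grown from germ-free (GF) mice were compared with organoids grown from mice with a specific pathogen free (SPF) microbiota, gene by gene. Organoids are cultures of intestinal crypts in which stem cells renew the epithelium in a gel, without microbes, immune cells or stroma. The comparison used 18 of the 27 libraries of the series, 6 from 3 GF cultures (Z917, Z918 and Z919) and 12 from 6 SPF cultures. Of the SPF cultures, 3 came from the facility SR (Z908, Z909 and Z910) and 3 from the facility SE (Z911, Z912 and Z913). The study's text calls these facility 1 and facility 2. Each culture came from the distal jejunum of 1 male wild-type mouse, the mice of a facility were cohoused littermates, and all cultures were grown in the same commercial medium, frozen and revived before harvest. The study's text describes the donors as C57BL/6J in its results and as C57BL/6 in its methods, and their age as 8 to 12 weeks. From each culture 1 library is labelled untreated and the other is labelled as treated with 5 ng/ml TNF, an inflammatory cytokine, for 8 h. The names of the deposited data disagree with these labels, so results given below by label may have the 2 treatments exchanged. The counts of both libraries were summed per culture, so that the treatment did not enter the comparison and the culture was the replicate. With 1 germ-free facility, germ-free status and facility cannot be told apart, and littermates of a facility also share their parents.

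In the gut, epithelial cells respond to microbes with antimicrobial lectins such as Reg3g, with the serum amyloid proteins, with the Duox2 oxidase and, through interferon-γ from immune cells, with MHC class II. The cultures themselves hold no microbes, and the comparison asks whether the origin of the cells still shows in their expression. C57BL/6 substrains are known to differ at several loci, among them Nnt, in which C57BL/6J carries a deletion of exons that C57BL/6N does not carry.

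Reads counted on genes ranged from 11440041 to 35283218 per library and from 38617004 to 63458774 per culture (median 58181629), at which 3 counts, taken as the detection floor, amount to 0.0473 to 0.0777 CPM, counts scaled to a common library size, for counting error alone. The cultures were epithelial, with Epcam, an epithelial adhesion protein, between 916 and 1130 CPM in each of them, and with Ptprc, Cdh5 and Col3a1, which mark leukocytes, endothelium and fibroblasts, between 0 and 0.0814 CPM. Further leukocyte markers reached 0.135 (Cd3e), 0.284 (Cd79a) and 2.41 CPM (Cd68) in the highest culture. Pecam1 of endothelium reached 0.326 CPM, and the fibroblast genes Pdgfra, Dcn, Col1a1 and Vim reached 0.180, 1.10, 3.01 and 11.6 CPM. The Y-linked genes Ddx3y, Uty and Kdm5d were present in all 9 cultures. On the first 2 principal components the SE culture Z911 and the SR culture Z908 stood apart from the other cultures, and the counts that follow were also taken without both. On the third component (15.3% of the variance) the GF culture Z919 stood apart, with a score of -76.1 against -8.54 to 41.5 in the others. CPM below are scaled by TMM, edgeR's correction for differences in composition between libraries.

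Organoids of GF and SPF origin differed at few genes. In edgeR's quasi-likelihood F-test over 12970 of the 22524 genes (the rest had too few counts), 7 genes had an adjusted p under 0.05, which is 0.0540% of the genes tested, and 6 of them were higher in GF cultures. Without Z908 and Z911 the number was also 7, with Ero1lb in place of Cap2. At the study's own thresholds (p up to 0.05 before adjustment, and a log2 fold change of 0.5 or more up or down) 264 genes passed (2.04%), of which 103 were higher (0.794%) and 161 lower (1.24%) in GF cultures. In edgeR's test 532 genes had a p under 0.05 before adjustment. The 3 GF cultures lay all above or all below the 6 SPF cultures at 326 genes (2.51%), and 99 genes passed the thresholds and did not overlap. If the cultures did not differ by origin, a gene would have a probability of 0.0119 to lie all above and the same to lie all below. The share of 2.51% is near that level, so a lack of overlap alone is no sign of a difference. The median log2 fold change was -0.01, and the 95% interval lay within 1 log2 unit of no difference for 9550 genes (73.6%). The median standard error was 0.17 on the log2 scale.

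**Figure D1:**
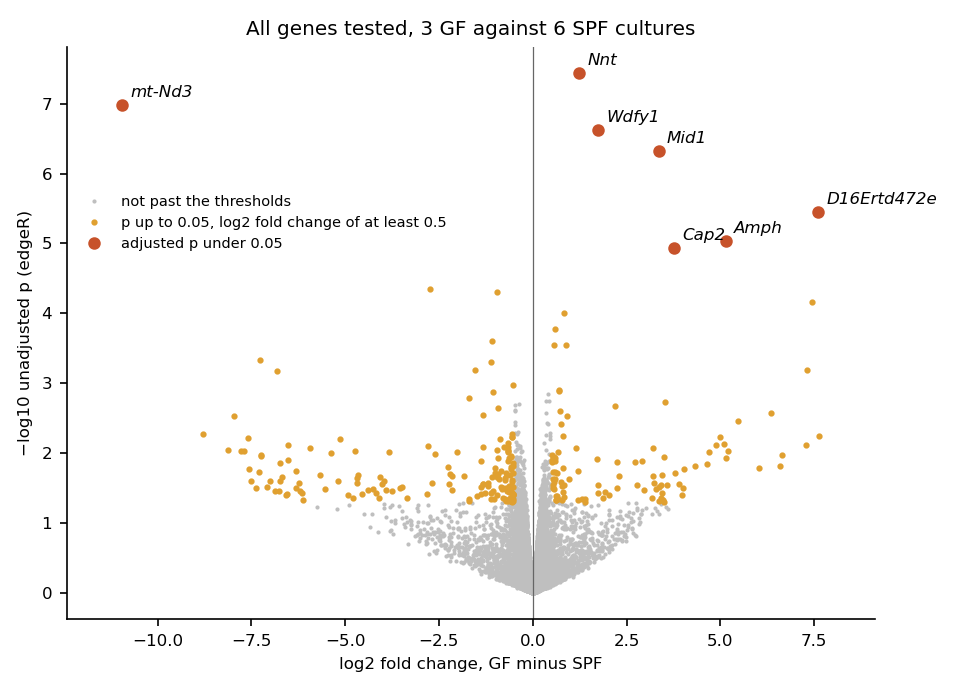
Each point is 1 of the 12970 genes tested; the horizontal axis is the log2 fold change (GF minus SPF) and the vertical axis the negative log10 of the unadjusted p of edgeR's test, 3 GF against 6 SPF cultures. The 7 named points have an adjusted p under 0.05, with mt-Nd3 alone on the left, and the 264 coloured points passed the study's thresholds.

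Nnt encodes nicotinamide nucleotide transhydrogenase, an enzyme of the inner mitochondrial membrane that makes NADPH from NADH with the proton gradient. Its level was 104, 105 and 105 CPM in the SR cultures, 81.7, 108 and 93.9 CPM in the SE cultures and 190, 249 and 262 CPM in the GF cultures. All GF cultures were above all SPF cultures, and SE minus SR was -0.16 ± 0.13 on the log2 scale. The log2 fold change (GF minus SPF) was 1.23 ± 0.11 (SE; 95% interval 0.99 to 1.48), with an adjusted p of 0.000473 in edgeR. Nnt was higher in GF than in SR cultures by 1.16 ± 0.14 and than in SE cultures by 1.31 ± 0.14 on the log2 scale, with adjusted p of 0.00319 and 0.00246 in the edgeR fit of the 3 facilities. Nnt (ENSMUSG00000025453) lies on the minus strand at chr13:119335448-119408997 of GRCm38. Reads were counted over the whole gene, so the counts hold no information on single exons.

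Amph encodes amphiphysin, a BAR-domain protein that binds curved membranes and takes part in clathrin-mediated endocytosis. Its level was 0.606, 0.0318 and 0.937 CPM in the SR cultures and 0.0530, 0.113 and 0.573 CPM in the SE cultures, close to the detection floor in several of them. In the GF cultures it was 10.1, 14.3 and 16.4 CPM, all above the SPF cultures. The log2 fold change was 5.14 ± 0.76 (95% interval 3.51 to 6.77), and edgeR's adjusted p was 0.0200. The call was lost without any 1 of the GF cultures, with adjusted p between 0.0815 and 0.136, and without the SE culture Z912, with an adjusted p of 0.0654. In a fit of the GF and SR cultures alone the adjusted p was 0.288, although the log2 fold change was 4.72 ± 0.82, and in a fit of the GF and SE cultures alone the call held (adjusted p 0.0220). It also held in the libraries labelled untreated (0.000212) and was lost in those labelled TNF-treated (0.0822).

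Cap2 encodes an actin-binding cyclase-associated protein best known from striated muscle. The SR cultures had 0.271, 0.874 and 0.141 CPM, the SE cultures 0.583, 0.452 and 0.802 CPM, and the GF cultures 8.33, 7.05 and 5.92 CPM. The groups did not overlap, and the log2 fold change was 3.76 ± 0.57 (95% interval 2.54 to 4.98) with an adjusted p of 0.0215 in edgeR. In the libraries labelled untreated the GF level was 10.2 to 14.2 CPM and the SPF level 0 to 1.86 CPM. In the libraries labelled TNF-treated the GF cultures had 2.11, 0 and 3.24 CPM, and the SPF cultures up to 0.481 CPM, so that the groups overlapped there. The call did not hold in either set of libraries taken alone (adjusted p of 0.378 and 1.00), without Z912 (adjusted p of 0.0922), without any 1 of the GF cultures (adjusted p of 0.100 to 0.256), or without both Z908 and Z911 (adjusted p of 0.0687).

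D16Ertd472e is a protein coding gene on chromosome 16. It was counted 3 times in all SPF cultures together and 398 times in the GF cultures. Its level was 0, 0.0159 and 0.0234 CPM in the SR cultures, 0, 0.0161 and 0 CPM in the SE cultures and 1.92, 3.07 and 1.77 CPM in the GF cultures. The ratio of the pooled levels was 243 (95% interval 82.7 to 1185, for counting error only). In edgeR, whose estimate depends here on the prior count, the 95% interval between cultures was 5.39 to 9.82 on the log2 scale and the adjusted p was 0.00928. The gene passed the filter on low counts through the GF cultures only. Like Amph and Cap2 it was no longer called without any 1 of the GF cultures, with adjusted p between 0.0529 and 0.136, and it was lost in either set of libraries taken alone (adjusted p of 0.0914 labelled untreated and 0.252 labelled TNF-treated).

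The 3 called genes that were under 1 CPM in every SPF culture had a promoter entry in RefSeq (GRCm38.p6). The sequences run from 250 bases before to 50 bases after the annotated start, 5′ to 3′ on the strand of the gene, and are shown so that the start regions of the genes with the largest increases among the called genes can be compared, with the CG dinucleotides (CpG, the sites of DNA methylation) in capitals.
Amph: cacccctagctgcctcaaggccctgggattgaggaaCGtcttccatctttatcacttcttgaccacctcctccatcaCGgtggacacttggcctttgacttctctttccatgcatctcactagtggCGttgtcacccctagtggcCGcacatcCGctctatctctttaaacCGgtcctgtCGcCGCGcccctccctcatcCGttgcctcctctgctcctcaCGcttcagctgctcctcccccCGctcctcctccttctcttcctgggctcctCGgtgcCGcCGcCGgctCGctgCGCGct
Cap2: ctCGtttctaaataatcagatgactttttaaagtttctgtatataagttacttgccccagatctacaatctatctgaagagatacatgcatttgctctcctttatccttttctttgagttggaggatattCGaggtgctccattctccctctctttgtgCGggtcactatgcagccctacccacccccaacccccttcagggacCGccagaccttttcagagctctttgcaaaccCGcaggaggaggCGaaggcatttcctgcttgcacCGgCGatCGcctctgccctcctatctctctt
D16Ertd472e: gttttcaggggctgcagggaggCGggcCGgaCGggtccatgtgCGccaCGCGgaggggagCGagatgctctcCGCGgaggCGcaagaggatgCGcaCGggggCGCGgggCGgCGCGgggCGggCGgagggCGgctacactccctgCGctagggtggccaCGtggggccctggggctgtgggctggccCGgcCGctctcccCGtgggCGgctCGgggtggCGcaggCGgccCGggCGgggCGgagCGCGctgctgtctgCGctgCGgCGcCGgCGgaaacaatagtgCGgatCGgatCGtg
The D16Ertd472e promoter at chr16:78576639-78576938 (minus strand) held 42 CpG, a number that 3.03% of the 32851 promoters in the table reached. The Amph promoter at chr13:18948101-18948400 (plus strand) held 19 (reached by 28.1%) and the Cap2 promoter at chr13:46501653-46501952 (plus strand) held 9 (reached by 45.8%), with a median of 7 over all promoters. The 3 genes thus spanned a wide range of CpG content, and methylation was not measured here. Of the 7 genes, 4 had an entry in the table, the other being Mid1, and Nnt, Wdfy1 and mt-Nd3 had none.

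Mid1 encodes midline 1, a microtubule-associated ubiquitin ligase of the TRIM family, on the X chromosome, where in the mouse it reaches across the boundary of the pseudoautosomal region. It had 7.12, 2.11 and 5.11 CPM in the SR cultures, 13.1, 10.8 and 5.36 CPM in the SE cultures and 70.2, 58.6 and 93.3 CPM in the GF cultures. The lowest GF culture was far above the highest SPF culture, and the log2 fold change was 3.35 ± 0.38 (95% interval 2.53 to 4.17; adjusted p 0.00154 in edgeR). The call held against SR alone and against SE alone in the edgeR fit of the 3 facilities, with adjusted p of 0.00238 and 0.0149.

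Wdfy1, on chromosome 1, encodes a FYVE and WD-repeat protein of early endosomes that links the Toll-like receptors TLR3 and TLR4 to their adaptor. Its level was 17.1, 14.6 and 11.7 CPM in the SR cultures, 21.8, 13.5 and 21.7 CPM in the SE cultures and 53.2, 60.2 and 53.9 CPM in the GF cultures. The GF cultures were close to each other and all above the SPF cultures, with a log2 fold change of 1.74 ± 0.19 (95% interval 1.33 to 2.14; adjusted p 0.00103 in edgeR). Wdfy1 was called against each SPF facility, with adjusted p of 0.00238 against SR and 0.0149 against SE in the edgeR fit of the 3 facilities, but not in the libraries labelled untreated alone (adjusted p 0.0817).

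mt-Nd3, a mitochondrial gene for a subunit of respiratory complex I, was the gene called lower in GF cultures. The SPF cultures had 206 to 259 counts each, or 4.13, 3.32 and 4.83 CPM in the SR and 6.75, 3.55 and 4.16 CPM in the SE cultures. All GF cultures had 0 counts, so the gene passed the filter on low counts through the SPF cultures only. Against the floor of 3 counts per culture the level was at least 79.7-fold lower, and edgeR's adjusted p was 0.000683. The neighbouring genes of the mitochondrial genome were counted very unevenly. mt-Nd1 had 204477 to 375032 counts per culture and mt-Co1 609733 to 1098728, while mt-Atp8 and mt-Atp6 had 0 counts in every culture and mt-Co2 9 counts in 1 of them. The protein genes on either side of mt-Nd3 also had few counts. mt-Nd4l had 1 to 107 counts in the SPF cultures and 0 in all GF cultures (adjusted p 0.939 in edgeR). mt-Co3 had 17 to 105 counts in the SPF cultures and 25, 0 and 0 in the GF cultures. Both mt-Nd4l and mt-Co3 passed the filter through the SPF cultures only. Nuclear copies of mitochondrial sequence exist in the mouse, and how reads with several matches were treated is not given in the sources used here, so the few counts of mt-Nd3 are uncertain.

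**Figure D2:**
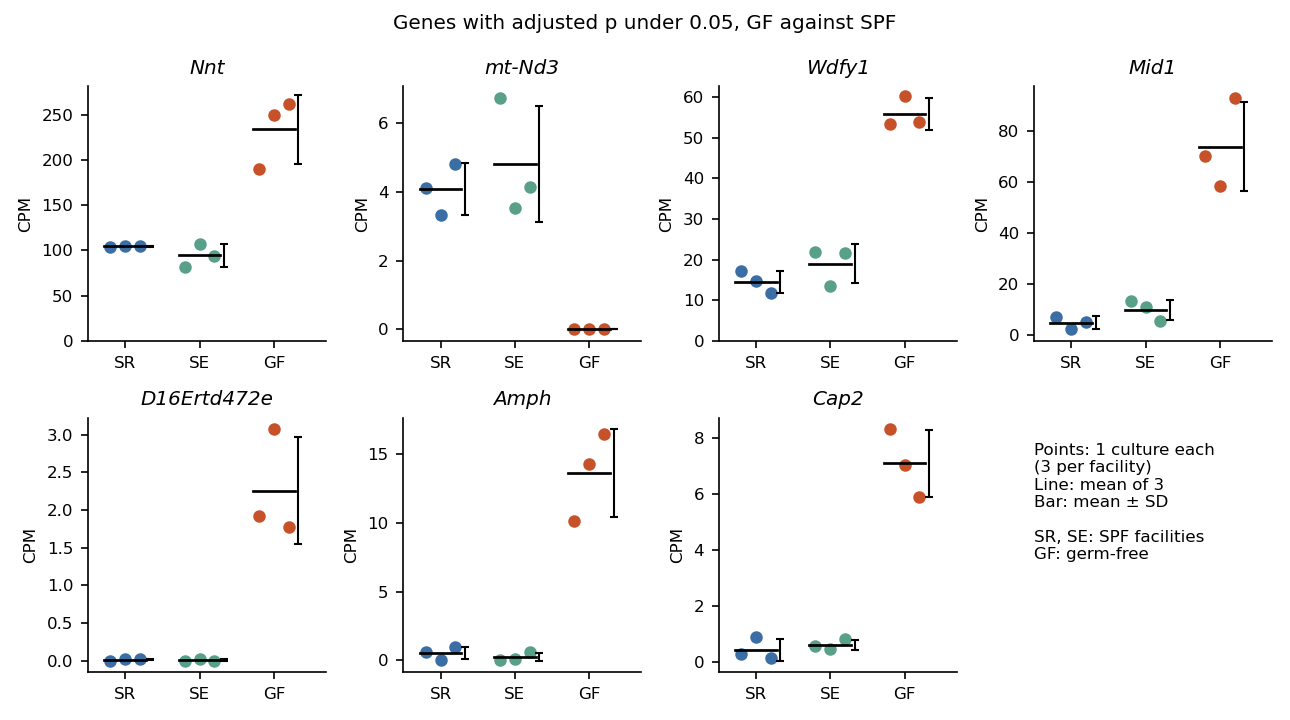
Each panel shows 1 gene with an adjusted p under 0.05 and each point 1 culture, in CPM on a linear axis, for the SPF facilities SR and SE and for GF; lines are means of 3 cultures and bars the SD. In each panel the 3 GF points lie apart from the 6 SPF points, above them in 6 panels and at 0 CPM for mt-Nd3.

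The values of single libraries are given as a description. The genes were called on the sums of these same libraries, so a lack of overlap is largely given and is no further support. The 2 libraries of a culture are not independent replicates. With 1 library per culture 3 of the 7 calls were lost in each set. For Nnt, mt-Nd3, Wdfy1, Mid1, D16Ertd472e and Amph the 6 GF libraries did not overlap with the 12 SPF libraries, and Cap2 overlapped. Nnt was between 182 and 271 CPM in GF libraries and between 73.9 and 120 CPM in SPF libraries. Amph was between 8.40 and 17.3 CPM in GF libraries and between 0 and 1.60 CPM in SPF libraries. The SPF cultures differed by label for Amph, with at most 0.0676 CPM in libraries labelled untreated and up to 1.60 CPM in those labelled TNF-treated.

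Other mitochondrial genes were also lower in GF cultures. Of 10 genes of the mitochondrial genome that were tested, 7 passed the study's thresholds and all 7 were lower. Over all genes tested 2.04% passed, but genes of the mitochondrial genome are not independent of each other. The 7 were mt-Nd3 and mt-Nd4l, both with 0 counts in all GF cultures, and mt-Nd1, mt-Nd2, mt-Co1, mt-Nd4 and mt-Nd5. mt-Nd1 fell from 6082 ± 2105 CPM (SD, n = 6) to 4003 ± 826 CPM (n = 3) and mt-Co1 from 17277 ± 6846 to 11437 ± 2120 CPM, with log2 fold changes of -0.60 ± 0.23 and -0.60 ± 0.26. None of these but mt-Nd3 had an adjusted p under 0.05 in edgeR. The share of counts on mitochondrial genes was 3.41%, 2.30% and 2.51% in the GF cultures and 3.45%, 3.29%, 4.59%, 6.30%, 2.45% and 3.69% in the SPF cultures from Z908 to Z913, so that the groups overlapped and Z911 was the highest. In the fit of the 3 facilities, 3 of the 10 genes passed the thresholds against SR and 7 against SE. Over all genes tested in these comparisons 2.60% and 2.11% passed.

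Of the 7 genes, 3 lie on chromosome 13. Amph (chr13:18948205-19150921), Cap2 (chr13:46501848-46650281) and Nnt are spread along it rather than adjacent. Of the 491 genes tested on this chromosome 21 (4.28%) passed the thresholds, 7 higher and 14 lower in GF cultures, while the share on the other autosomes ranged from 0.970% to 2.75%. In the fit of the 3 facilities the share on chromosome 13 was 5.60% against SR, 4.20% against SE and 3.00% between SE and SR, beside 2.60%, 2.11% and 2.44% over all genes tested in these comparisons. The 2 comparisons of GF share the GF cultures. These shares are descriptions, since genes of a chromosome are not independent.

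**Figure D3:**
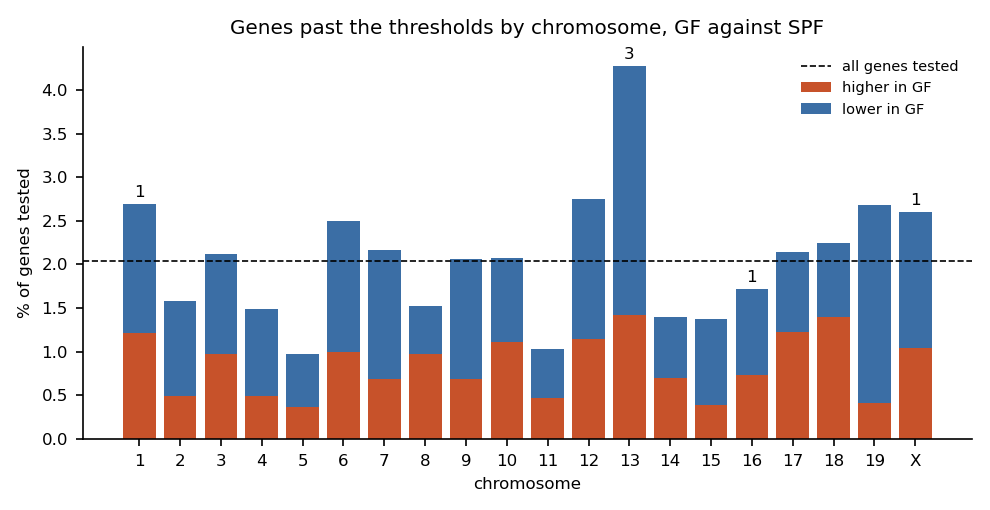
Bars give the share of genes tested on each chromosome that passed the thresholds (p up to 0.05 before adjustment, log2 fold change of 0.5 or more), split by direction; the dashed line is the share over all genes, 2.04%, and numbers above bars count genes with an adjusted p under 0.05. Chromosome 13 has the highest bar, at 4.28%, and 3 such genes; the mitochondrial genome and the Y chromosome, with 10 and 5 genes tested, are not drawn.

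Genes next to the called genes were set against the same thresholds, which 2.04% of all genes tested passed. With so few neighbours per gene, 0 is near that share. Within 1 Mb, 0 of 9 genes around Nnt, 0 of 6 around Wdfy1, 0 of 2 around Mid1 and 0 of 2 around D16Ertd472e passed. Near Amph 1 of 6 did, Elmo1, a partner of DOCK proteins in the activation of Rac, which had 6.34 to 17.5 CPM in the SPF and 3.02, 3.51 and 4.70 CPM in the GF cultures, opposite in direction to Amph. Its log2 fold change was -1.53 ± 0.35 (adjusted p 0.432 in edgeR). Near Cap2 1 of 10 did, Tpmt, the thiopurine methyltransferase, which had 5.09 to 12.4 CPM in the SPF and 21.0, 19.3 and 14.5 CPM in the GF cultures, with a log2 fold change of 0.90 ± 0.25 (adjusted p 0.939).

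Beyond the called genes, Ero1lb, also on chromosome 13, was closest to the threshold. It encodes an oxidase of the endoplasmic reticulum that helps form disulfide bonds and is known from insulin-producing cells. The SR cultures had 14.5, 7.85 and 7.76 CPM, the SE cultures 4.16, 8.99 and 13.8 CPM and the GF cultures 1.43, 2.02 and 0.778 CPM, so that the groups did not overlap. The log2 fold change was -2.75 ± 0.47 with an adjusted p of 0.0701 in edgeR, and the gene was called by DESeq2 and by limma-trend (adjusted p of 7.45e-08 and 0.0392) and without Z911 (0.0213). Among genes past the thresholds without overlap and with a mean of at least 1 CPM, the others with the largest differences did not reach an adjusted p under 0.05 in edgeR. Higher in GF cultures were Chst4, a sulfotransferase that modifies mucins (0.609 to 1.10 CPM in SPF; 6.35, 2.30 and 2.48 CPM in GF; log2 fold change 2.19 ± 0.58), and Gm7353 (0 to 1.18 CPM in SPF; 2.22, 2.83 and 3.04 CPM in GF; 2.03 ± 0.89). Lower were Smpd5, a sphingomyelinase (0.726 to 2.54 CPM in SPF; 0.135 to 0.484 CPM in GF; -2.25 ± 0.82), Mroh7 (-2.15 ± 0.83) and Wdr78, an axonemal dynein component (2.03 to 7.36 CPM in SPF; 0.323 to 1.45 CPM in GF; -2.02 ± 0.68).

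Genes at which C57BL/6 substrains are known to differ in sequence or expression were listed, 10 in all. Of these 4 were tested, and Nnt and Wdfy1 passed the thresholds, both higher in GF cultures. Over all genes tested 2.04% passed, but the list was chosen with earlier results of these data known. Crb1 and Mmrn1 had 0 counts in every culture and Dock2 at most 3, Entpd4 was counted in 1 culture only (10 counts), Nlrp12 in Z908 only (79 counts), and Cyfip2 reached 46 counts. Ide, the insulin-degrading enzyme, did not pass against the pooled SPF cultures (-0.55 ± 0.29; adjusted p 0.999 in edgeR), but its level split the SPF facilities. It was 121, 148 and 147 CPM in SR, 280, 336 and 307 CPM in SE and 152, 157 and 148 CPM in GF cultures, so that GF lay beside SR and both lay below SE. In the edgeR fit of the 3 facilities, Ide was higher in SE than in SR by 1.15 ± 0.11 (adjusted p 0.00180) and lower in GF than in SE by 1.01 ± 0.11 (adjusted p 0.00261). The genotype of the donors at these loci was not tested.

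The SPF facilities served as a background for a difference between facilities. By the study's methods, the germ-free isolators stood in the same centre as the SE mice, and the SR mice were kept in another. In the fit of the 3 facilities, over 13137 genes, edgeR called 4 genes between GF and SR (0.0304%), namely Mid1, mt-Nd3, Wdfy1 and Nnt. It called 5 between GF and SE (0.0381%), the same genes and Ide. Between SE and SR, 2 genes were called (0.0152%), Ide and Bnip3l, a mitophagy receptor, and 320 passed the study's thresholds (2.44%), against 341 between GF and SR and 277 between GF and SE. In this fit D16Ertd472e, Amph and Cap2 were not called against either facility, with adjusted p of 0.178 to 0.482, although their log2 fold changes there were between 3.53 and 8.06.

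The genes around the pathway of Nnt were also listed. The list held 24 genes that make or use NADPH in and around mitochondria, including the isocitrate dehydrogenases Idh1 and Idh2, the malic enzymes, the glutathione reductase Gsr, the thioredoxin reductases and the peroxiredoxins. Nnt was the 1 gene that passed. Over all genes tested 2.04% passed, so a list of this size is expected to hold few. The median log2 fold change over the list was 0.01. Of the 24 intervals 22 (91.7%, against 73.6% of all genes tested) lay within 1 log2 unit of no difference. Idh2, which also supplies NADPH in mitochondria, was at 163 CPM in GF and 159 CPM in SPF cultures (log2 fold change 0.04; 95% interval -0.20 to 0.27), and Sod2, the mitochondrial superoxide dismutase, at 94.0 and 93.4 CPM (0.01; -0.19 to 0.21).

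Among 24 tested genes of endocytosis and BAR-domain proteins, Amph passed upwards and Bin1, the close relative of Amph, passed downwards. Over all genes tested 2.04% passed. Bin1 had 7.66 to 13.8 CPM in the SPF and 7.43, 6.86 and 6.41 CPM in the GF cultures, all GF values below the SPF values (log2 fold change -0.69 ± 0.27; adjusted p 0.999 in edgeR). The clathrin heavy chain gene Cltc was at 567 CPM in GF and 515 CPM in SPF cultures (0.14; 95% interval -0.06 to 0.34) and the dynamin gene Dnm2 at 120 and 121 CPM (-0.02; -0.26 to 0.22). The dynamin gene Dnm1 was lower in GF cultures, at 74.8 against 97.4 CPM (-0.38; -0.68 to -0.08), but under the fold change threshold. Dnm3 was at 0.0490 and 0.436 CPM (-3.08; -6.94 to 0.78). The median over the list was 0.02.

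Of 23 tested epithelial genes that are known to respond to the microbiota, 0 passed the thresholds, with a median log2 fold change of 0.03. Over all genes tested 2.04% passed, so 0 in a list of this size is near that share. Reg3g was at 59.3 CPM in GF and 53.6 CPM in SPF cultures (log2 fold change 0.15; 95% interval -0.32 to 0.62), Reg3b at 24.6 and 24.1 CPM (0.03; -0.80 to 0.85) and Pigr, which carries IgA across the epithelium, at 2244 and 2278 CPM (-0.02; -0.21 to 0.17). Duox2 had the smallest p of the list, with 5.27 to 10.5 CPM in the SPF and 23.8, 7.60 and 6.96 CPM in the GF cultures, so that 1 GF culture was high and the other two lay among the SPF cultures (0.78 ± 0.37; adjusted p 0.999 in edgeR). For 8 of the 23 genes (34.8%, against 73.6% of all genes tested) the interval lay within 1 log2 unit of no difference. Wider intervals were those of genes at low levels, such as Saa1 at 0.278 CPM in GF and 5.63 CPM in SPF cultures (-4.34; -9.87 to 1.19), so that differences of that size were not detectable there.

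Genes of microbial sensing and of the interferon response gave 0 of 28 and 0 of 25 past the thresholds, with medians of -0.02 and -0.05. These counts are near the share over all genes tested, 2.04%. The sensing genes comprise Toll-like receptors, NOD-like receptors and their adaptors. Of their 28 intervals 18 (64.3%, against 73.6% of all genes tested) lay within 1 log2 unit of no difference. The smallest p among them was that of Naip5, which senses flagellin, with 264 CPM in the SR culture Z908 and 88.4 to 130 CPM in the other SPF cultures against 89.4, 69.9 and 110 CPM in the GF cultures (log2 fold change -0.58 ± 0.29). Naip5 has near-identical paralogs, and its counts are uncertain for that reason. In the interferon list Usp18 had the smallest p, at 0.0469 to 0.495 CPM in SPF and 1.12, 0.970 and 0.220 CPM in GF cultures. It passed the filter on low counts through the GF cultures only.

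MHC class II genes, which present antigen and depend on interferon-γ, were at low levels in all cultures. Of 6 tested 2 passed (2.04% over all genes tested), both lower in GF cultures. H2-Ab1 was counted 161 times in the SPF and 1 time in the GF cultures, with 0.0160, 1.45 and 0.937 CPM in the SR, 0.238, 0.0807 and 0.286 CPM in the SE and 0.0186, 0 and 0 CPM in the GF cultures. The ratio of the pooled levels was 87.8 (95% interval 15.5 to 3488, for counting error only), 91 of the 161 SPF counts came from Z909, and 1 SR culture was as low as the GF cultures. The gene passed the filter through the SPF cultures only, and its adjusted p was 0.999 in edgeR. Cd74, the invariant chain, was at 1.44, 1.84 and 1.36 CPM in the SR, 0.397, 0.436 and 0.706 CPM in the SE and 0.0373, 0.0647 and 0.372 CPM in the GF cultures, with a log2 fold change of -2.69 ± 1.08 (adjusted p 0.999 in edgeR). Other members did not pass, among them H2-DMa (-0.61; 95% interval -1.46 to 0.24), and H2-Eb1 was at 0.532 CPM in GF and 0.231 CPM in SPF cultures. The summed level of 16 leukocyte marker genes was 22.4 to 27.3 CPM in GF and 17.2 to 34.5 CPM in SPF cultures, but Kit made up most of it (17.5 and 16.0 CPM on average) and 7 of the 16 had at most 3 counts in every culture. Lyz2 of that list, a lysozyme of macrophages, had 0.267 CPM in GF and 0.943 CPM in SPF cultures on average, and the part of leukocytes in the MHC class II values was not tested.

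Marker genes of the epithelial cell types did not pass the thresholds, which 2.04% of all genes tested passed. In lists of this size 0 is near that share. Of 15 stem cell genes 0 passed, with a median of 0.11, and Lgr5, the receptor that marks crypt base stem cells, was at 179 CPM in GF and 144 CPM in SPF cultures (log2 fold change 0.32; 95% interval -0.26 to 0.89). All 15 intervals of the proliferation genes lay within 1 log2 unit of no difference (73.6% over all genes tested). Top2a was at 544 to 577 CPM in GF and 435 to 546 CPM in SPF cultures (0.15 ± 0.09). For Paneth (10 tested), goblet (12), enteroendocrine (17), tuft (9) and enterocyte (22) genes 0 passed, with medians of 0.27, 0.14, 0.08, -0.34 and -0.23. Lyz1, the Paneth cell lysozyme, was at 153 and 126 CPM (0.28; -0.12 to 0.67) and the mucin gene Muc2 at 133, 105 and 75.9 CPM in GF and 62.2 to 117 CPM in SPF cultures (0.40 ± 0.19). Chgb, a granin of enteroendocrine cells, was above all SPF cultures in each GF culture (98.6, 120 and 101 CPM against 54.2 to 92.6 CPM), but its log2 fold change of 0.44 ± 0.15 was under the threshold. The members with the smallest p in the other lists were Mptx1 (1.22 ± 0.66), Trpm5 (-1.06 ± 0.54), Ace (-0.73 ± 0.48) and Znrf3 (0.32 ± 0.15). Tuft cell genes were at low levels, and none of their intervals lay within 1 log2 unit of no difference.

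**Figure D4:**
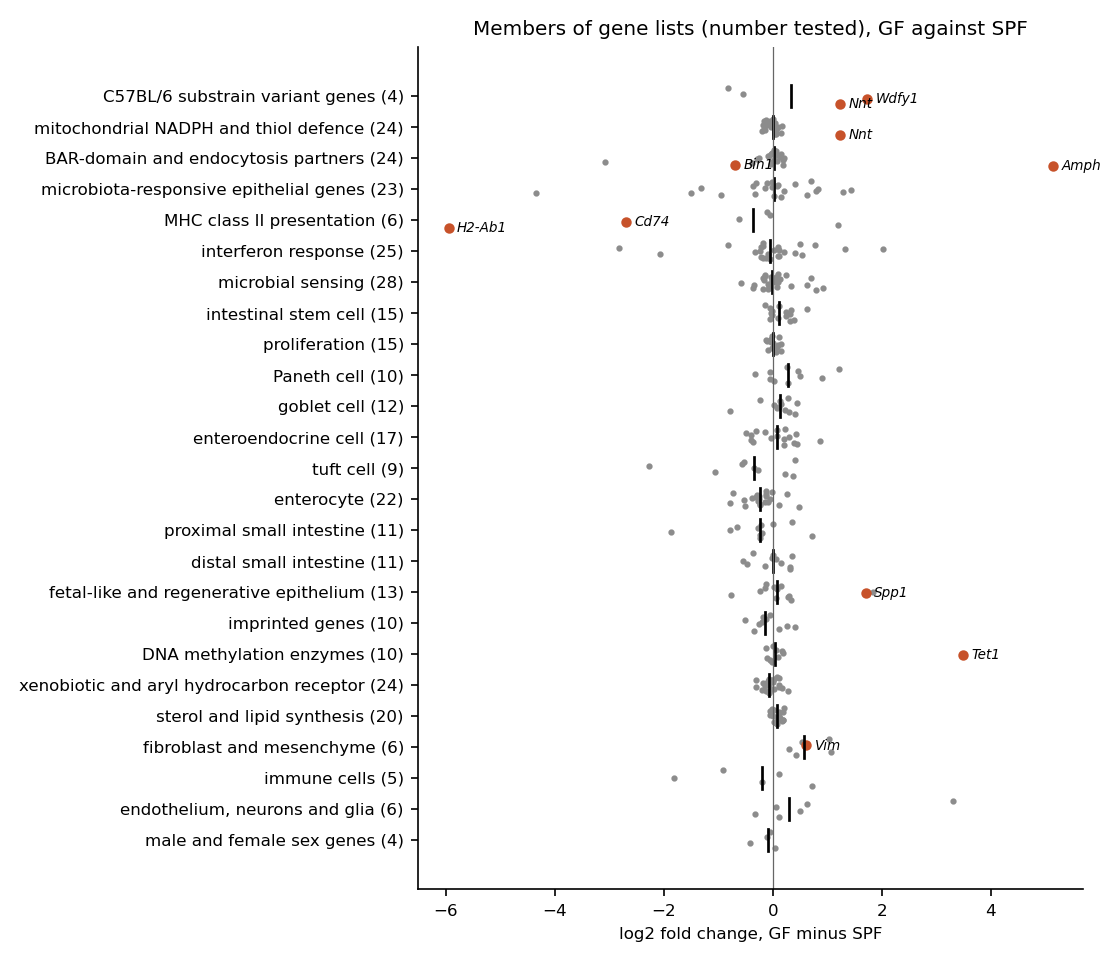
Each row is a gene list with the number of members tested, each point 1 member and each black tick the median of the list; the horizontal axis is the log2 fold change (GF minus SPF). Coloured, named points passed the thresholds, and the medians ranged from -0.36 (MHC class II) to 0.57 (fibroblast and mesenchyme).

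Among genes of gut position, imprinting and DNA methylation, 1 passed, near the share of 2.04% over all genes tested. Of 11 genes of the proximal and 11 of the distal small intestine 0 passed, with medians of -0.23 and 0.00. The smallest p were those of Pdx1, a duodenal transcription factor, at 0.726 to 2.73 CPM in SPF and 0.578, 0.0970 and 0.389 CPM in GF cultures (log2 fold change -1.86 ± 0.88), and of Amn (-0.54 ± 0.26). Of 10 tested imprinted genes 0 passed, with Plagl1 at 0.26 ± 0.18. Among 10 enzymes and readers of DNA methylation 1 passed, Tet1, which oxidises methylcytosine. Tet1 was at 0 to 0.318 CPM in the SPF and 0.634, 1.29 and 1.40 CPM in the GF cultures, without overlap, with a log2 fold change of 3.49 ± 1.20 and an adjusted p of 0.999 in edgeR, and it passed the filter on low counts through the GF cultures only. Tet2, Tet3 and Dnmt1 were at higher levels, with log2 fold changes of 0.18, 0.16 and -0.02.

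Metabolic genes that diet and bacterial products regulate in the gut did not pass the thresholds, which 2.04% of all genes tested passed. Of 24 xenobiotic and aryl hydrocarbon receptor genes 0 passed (median -0.07), and Ugt1a1, which conjugates bilirubin, was at 458 to 644 CPM in GF and 455 to 706 CPM in SPF cultures (log2 fold change -0.18 ± 0.15). Of 20 sterol and lipid synthesis genes 0 passed, and all 20 intervals lay within 1 log2 unit of no difference (73.6% over all genes tested). Acly, which supplies cytosolic acetyl-CoA, was at 403 to 410 CPM in GF and 293 to 391 CPM in SPF cultures, without overlap. Its log2 fold change was 0.20 ± 0.10. Of 13 fetal-like and regenerative genes 1 passed, Spp1, which encodes osteopontin, at 0.706 to 2.48 CPM in SPF and 4.92, 4.61 and 2.16 CPM in GF cultures (1.71 ± 0.59; adjusted p 0.999 in edgeR).

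Markers of fibroblasts were low in all cultures. The summed level of 13 fibroblast and mesenchyme genes was 22.7 to 35.6 CPM in GF and 15.0 to 22.9 CPM in SPF cultures, against 8779 to 10472 CPM in the mouse embryonic fibroblasts of the same series. Of 6 tested 1 passed, Vim, which encodes the filament protein vimentin, at 4.55 to 9.58 CPM in SPF and 11.4, 11.3 and 9.96 CPM in GF cultures (log2 fold change 0.62 ± 0.28; adjusted p 0.999 in edgeR), and Lum, Thy1 and Myh11 had at most 3 counts in every culture. Vim thus moved in the same direction as the genes called higher, and its part in those results was not tested. Of the leukocyte and of the endothelial, neuronal and glial genes that were tested, 0 of 5 and 0 of 6 passed (2.04% over all genes tested). The smallest p were those of Lyz2 (-1.81 ± 1.29) and S100b (0.279, 0.210 and 0 CPM in GF and up to 0.0484 CPM in SPF cultures). S100b passed the filter on low counts through the GF cultures only. The Y-linked gene Eif2s3y was at 21.7 CPM in the GF culture Z919 and at 59.4 to 80.4 CPM in the other 8 cultures, while Ddx3y ranged from 36.1 to 61.8 CPM, Uty from 22.0 to 30.2 CPM and Kdm5d from 35.1 to 50.8 CPM.

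The share of variance between GF and SPF cultures was near the mean over all splits of the cultures. It was 13.4% of the variance of log2 CPM among the 9 cultures, where the mean over all 84 ways to pick 3 of 9 cultures was 12.5% and 21 of the 84, the split by origin included, gave as large a share (p = 0.25, one-sided exact permutation test; the smallest p possible was 0.0119). Pearson's r across genes was 0.935 to 0.949 between GF cultures, 0.924 to 0.960 between GF and SPF cultures, 0.935 to 0.968 between SPF cultures of the same facility and 0.923 to 0.970 between SR and SE cultures. These ranges overlap, and genes are not independent replicates. The nearest culture of every other culture was the SE culture Z912.

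**Figure D5:**
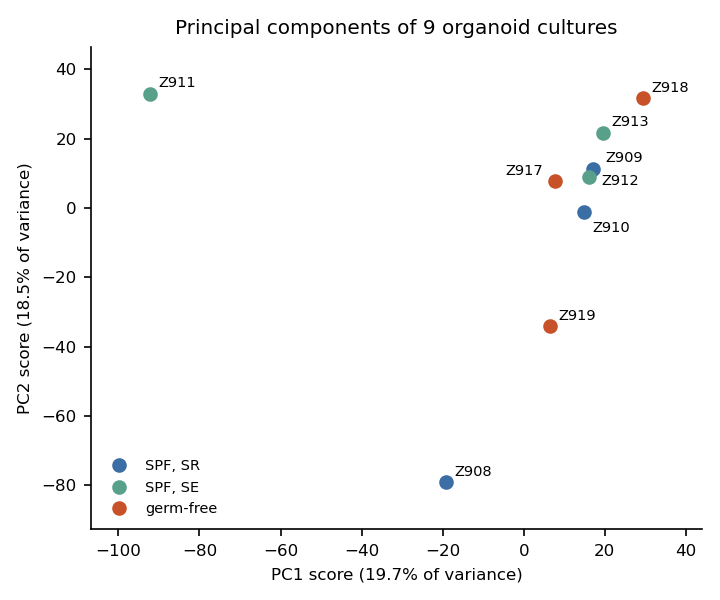
Each point is 1 culture (the sum of its 2 libraries), placed by its scores on the first and second principal components of log2 CPM, which hold 19.7% and 18.5% of the variance; colours mark the facilities. On these 2 components the GF cultures lie among the SPF cultures, with Z911 far out on the first (-92.1) and Z908 on the second (-79.2). The third component, on which the GF culture Z919 is far out (-76.1), is not drawn.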

How the data were processed

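RNA of 9 organoid cultures was sequenced as 2 poly-A selected libraries each. The authors trimmed the reads with Trimmomatic, aligned them to GRCm38 with STAR (2.5.4b in the submitters' processing notes) and deposited raw counts per gene, whole numbers that are not normalized, in tables of 22524 genes. The study's methods name GenomicRanges as the counter and the processing notes featureCounts. The use of strand and the treatment of reads with several matches are not given in the sources used here. The treatment in the sample labels and in the names of the deposited data differ, which the sums per culture do not depend on. The results given by label do depend on it, and which of the 2 is right was not tested.

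The 2 count columns of a culture were added. Genes that reached 10 counts in 50% or more of the cultures of a group were tested with edgeR 4.0.16 (TMM, quasi-likelihood F-test, R 4.3.3), 3 GF against 6 SPF cultures, no covariate, with Benjamini-Hochberg adjustment over all genes tested. Standard errors come from the F statistic and 95% intervals from edgeR's total degrees of freedom (median 14.0). CPM are TMM-scaled except in the detection floor, the marker ranges and the summed marker levels, which use totals. Log2 CPM have a prior count of 2. Gene positions are those of GENCODE vM21 (GRCm38), which 22214 of the genes matched. Wdfy1 overlaps Mrpl44 and Mid1 overlaps 4933400A11Rik or antisense transcripts on the other strand, so reads of these cannot be told apart without strand.

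The members and gene lists were chosen with earlier results of these data known. The genes named are Amph and Nnt, the genes with an adjusted p under 0.05, the 5 largest differences in each direction among genes past the thresholds without overlap and with a mean of at least 1 CPM, from each list the members past the thresholds or else the one with the smallest p, and neighbours within 1 Mb past the thresholds. Ide, Bnip3l, the mitochondrial genes and further list members given as examples were chosen after their values were seen. The alternatives were DESeq2 1.42.0, limma-trend (limma 3.58.1), no filter, the libraries of either label, either SPF facility, a fit of 3 facilities and leaving out each culture. Leaving out Z908 and Z911 together was chosen after seeing the data. The fits were tested on simulated data. The mice of a facility are littermates, so p-values measure the spread between these cultures and not between litters. One member of the substrain list is not reported here.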

Additional observations from a re-analysis of the deposited data

Results flagged for a closer look

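In the 6 SPF cultures, 1 sample lay far from the others for 5 of the 39 named genes and on 2 of 3 principal components, by the gap to the nearest culture against the whole range; chance alone flags about 1 in 20 such groups. Z908 was the highest SPF culture for Wdr78 (7.36 CPM), Usp18 (0.495 CPM), Naip5 (264 CPM) and Pdx1 (2.73 CPM), and its score on the second component was -79.2. Z910 was the highest for Muc2 (117 CPM). The score of Z911 on the first component was -92.1. Its library labelled TNF-treated had the lowest total, 11440041 counts. The part of depth in these values was not tested.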

How the results depend on the processing

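The number of genes with an adjusted p under 0.05 was 24 in DESeq2, 4 in the libraries labelled untreated and 4 in those labelled TNF-treated, 3 against SR alone and 4 to 8 with 1 culture left out, against 7. limma-trend gave 8. The number past the study's thresholds was 499 with no filter on low counts (52.1% higher in GF, against 39.0%) and 221 to 461 with 1 culture left out, the highest without Z918 (461), against 264. Between SE and SR, 1 gene was called with the 6 SPF cultures alone, against 2. The share of variance between GF and SPF ranged from 14.9% to 16.3% with 1 culture left out, where the mean over splits is 14.3% in place of 12.5%, and from 11.7% to 19.3% otherwise. The log2 fold change of Duox2 was -0.14 in the libraries labelled TNF-treated and -0.028 to 1.08 with 1 culture left out, the lowest without the GF culture Z917, against 0.78; these were the 2 cases among the named genes in which a direction changed. Nnt and Mid1 were called under every alternative, with adjusted p of at most 0.0148 and 0.0153, and their log2 fold changes ranged from 1.14 to 1.36 and from 2.93 to 3.96. mt-Nd3 lost its call in a fit of the GF and SR cultures alone (adjusted p 0.0572). No paired analysis was possible because the GF and SPF cultures share no replicate numbers. The causes were not tested. With 3 GF cultures, differences of genes at low levels had wide intervals, and 107 of the 264 genes past the thresholds had a mean under 1 CPM.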
